A study of Mus musculus with 65 samples.

Results

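The genes Runx2, Sp7, Alpl, Ibsp and Spp1, which mark successive steps of osteoblast differentiation and of bone matrix formation, were followed through the ageing of the mouse tibia. They were chosen by name, as the probe sets whose 1 gene symbol was among these 5, out of 15830 genes measured. Runx2 and Alpl were read by 16 probe sets each, Ibsp by 10, Spp1 by 9 and Sp7 by 2. The samples came from 25 untreated wild-type male C57BL/6J mice and were hybridised to 65 exon arrays in 13 groups of 5. Tibia bone, thigh skeletal muscle and ventral skin were taken from 4-, 18- and 28-month-old mice, and thymus and abdominal white adipose tissue from 4- and 18-month-old mice. The bone of 4-month-old mice came from 5 mice that gave none of the other tissues, which came from 9 other mice, so at that age tissue and set of mice cannot be told apart. The 18-month tissues came from 6 mice that gave 3 to 5 tissues each, and at 28 months the same 5 mice gave all 3 tissues.

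Osteoblasts arise from mesenchymal progenitors. Runx2 is the transcription factor that commits a progenitor to the lineage, and Sp7 (osterix) is the zinc finger factor that acts downstream of it. The committed cell then makes tissue-nonspecific alkaline phosphatase, encoded by Alpl, which hydrolyses pyrophosphate, an inhibitor of mineral formation. Ibsp (bone sialoprotein) and Spp1 (osteopontin) are acidic, phosphorylated matrix proteins. Ibsp promotes mineral nucleation, whereas Spp1 binds mineral, restrains crystal growth and anchors osteoclasts, and is also made by osteoclasts and activated macrophages.

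The promoter sequences are shown because Runx2 is the lineage factor among the 5 and recognises the letters ACCACA, which were sought on both strands. RefSeq promoters, 250 bases before to 50 after a transcription start on GRCm38.p6, were found for 4 of the 5 genes, and Sp7 is named only. Capitals mark every match on either strand, and no matches overlapped. The first sequence is Runx2 at chr17:44814578-44814877, minus strand, the second Ibsp at chr5:104299037-104299336, plus strand, and the third the upstream start of Spp1 at chr5:104434861-104435160, plus strand.
Runx2: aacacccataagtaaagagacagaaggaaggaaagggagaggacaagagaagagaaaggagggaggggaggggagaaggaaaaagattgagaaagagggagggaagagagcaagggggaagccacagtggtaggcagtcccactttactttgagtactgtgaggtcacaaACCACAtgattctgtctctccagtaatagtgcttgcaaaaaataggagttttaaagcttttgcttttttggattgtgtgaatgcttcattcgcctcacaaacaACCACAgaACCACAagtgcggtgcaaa
Ibsp: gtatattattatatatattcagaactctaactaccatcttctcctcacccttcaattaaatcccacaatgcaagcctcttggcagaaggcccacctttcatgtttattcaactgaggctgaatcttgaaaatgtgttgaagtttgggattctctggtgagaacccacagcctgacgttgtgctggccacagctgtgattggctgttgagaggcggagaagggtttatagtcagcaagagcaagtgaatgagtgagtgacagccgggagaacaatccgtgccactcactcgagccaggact
Spp1: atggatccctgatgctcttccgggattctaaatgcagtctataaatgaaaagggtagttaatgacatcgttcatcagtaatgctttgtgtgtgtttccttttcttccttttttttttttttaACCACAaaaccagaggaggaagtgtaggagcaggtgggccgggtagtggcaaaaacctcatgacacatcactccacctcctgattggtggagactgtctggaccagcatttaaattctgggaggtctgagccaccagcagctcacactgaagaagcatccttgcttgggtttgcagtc
The Runx2 promoter held 3 matches, the upstream start of Spp1 held 1, and the Ibsp promoter, the second Spp1 start and both Alpl starts held 0. Of 32851 mouse promoters of 300 bases, 16.8% held at least 1 match and 0.183% held 3 or more. A match is a description of the letters only, and no binding was measured.

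The deposited values are log2 signals, and a gene value here is the mean log2 signal over the probe sets of the gene. A difference of 1 is a 2-fold change. Signals of different genes are not comparable on arrays, so levels were compared within a gene only. Where all arrays of a group are said to lie above or below those of another, the values are described only. The share of all genes with groups so separated is not given here. A gene was said to rise or fall when its adjusted p in limma was below 0.05 over all 15830 genes, in 1 fit of the 13 groups. The standard error (SE) after a ± sign comes from such a fit, which pools the spread over all 13 groups. Arrays of a group correlated at 0.931 or higher. Osteocyte markers such as Sost and Dmp1 were present in every bone array, with list means of 5.84 to 8.68 against 3.96 to 4.80 elsewhere. So were markers of marrow and muscle. Neutrophil markers lay between 10.58 and 11.50 in bone against 3.39 to 7.12 elsewhere, and skeletal muscle markers ranged from 6.04 to 11.13 between bone arrays. The sources used here do not say whether marrow was flushed from the tibia. In 1 array of 28-month-old bone (replicate 5) erythroid markers were at 6.13, where the other 14 bone arrays had 9.43 to 10.35. In bulk tissue, fewer cells of a type and less RNA per cell cannot be told apart.

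All 5 genes were higher in bone than in the other tissues at every age. Against the mean of the others in 4-month-old mice, 5 of 5 were higher in bone, where 52.9% of all genes passed the test in either direction and the median difference over all genes was -0.04. The corresponding shares of all genes were 52.0% at 18 months and 72.5% at 28 months, when only muscle and skin were left for comparison, and again 5 of 5 were higher. Ibsp differed by 7.98 ± 0.11 (SE), 7.29 ± 0.11 and 7.74 ± 0.12 at 4, 18 and 28 months, values taken against a signal at background in the other tissues and so of no exact size. Its SD within groups was 0.403 in bone and 0.134 elsewhere, which the SE pools. Spp1 differed by 7.44 ± 0.24, 6.52 ± 0.24 and 7.78 ± 0.26.

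The regulators and the phosphatase were higher as well. Sp7, at background outside bone in all but 1 array, was higher in bone by 3.47 ± 0.26 at 4 months, 2.37 ± 0.26 at 18 months and 2.39 ± 0.28 at 28 months. These SE values are pooled and do not show the spread at each age, as the SD of Sp7 in bone was 0.0852, 0.747 and 1.61. Alpl was higher by 3.38 ± 0.32, 2.42 ± 0.32 and 2.08 ± 0.35. Runx2 was higher by 2.26 ± 0.11, 1.85 ± 0.11 and 1.70 ± 0.12, so its smallest fold was 3.24. Taken tissue by tissue, all 50 comparisons of a gene in bone with 1 other tissue of the same age passed the test, each higher in bone. Over the 10 pairs 53.1% of all genes passed in either direction (42.2% to 75.8% per pair), and 16.8% to 28.5% per pair were higher in bone. The smallest member difference was Alpl in bone against muscle at 18 months, at 0.96 ± 0.41 (1.94-fold, adjusted p = 0.0374). That call was lost when bone replicate 2, 3, 4 or 5 or muscle replicate 2, 3, 4 or 5 of that age was left out (0.89 to 0.97, adjusted p = 0.0503 to 0.0725), with the median over probe sets (adjusted p = 0.0561) and with gene values quantile normalised (0.81, adjusted p = 0.0807). In a fit of the 18-month arrays alone it had an adjusted p of 7.73e-05.

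**Figure D1:**
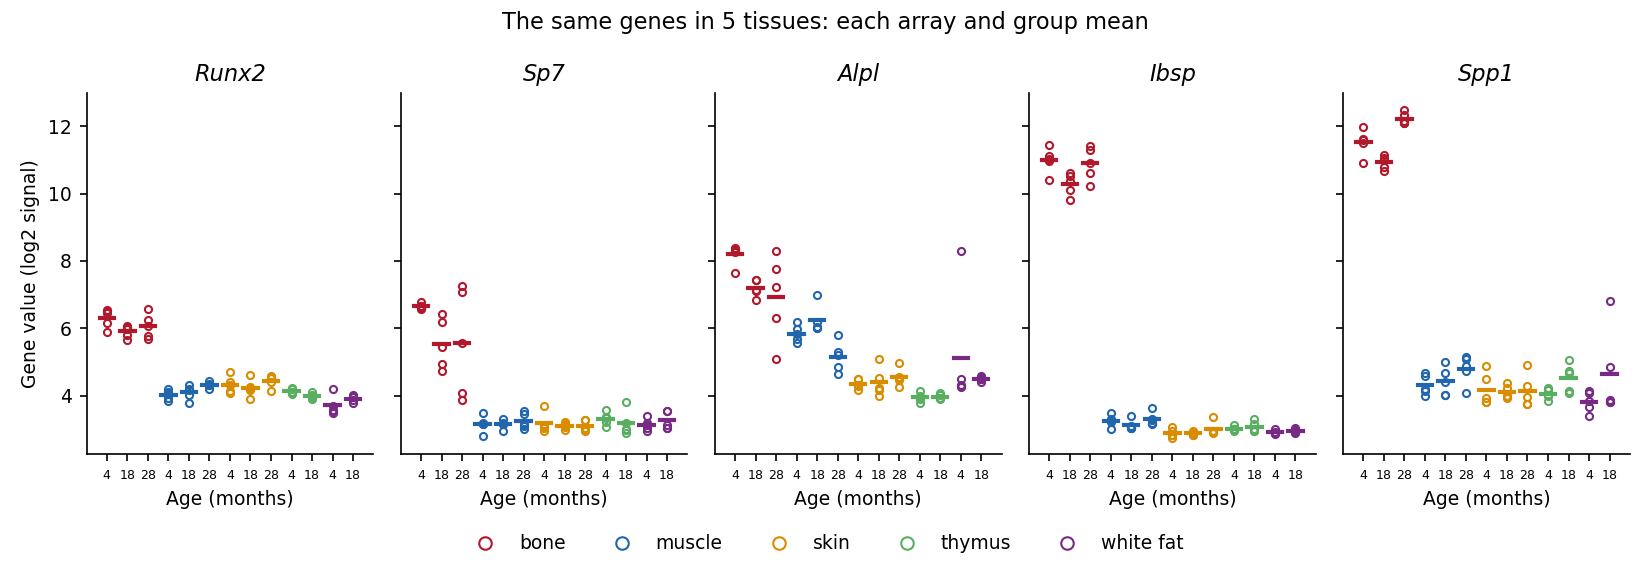
Gene value (log2 signal, vertical axis) of the 5 genes in each array, by tissue (colour) and age in months (horizontal axis). Circles are arrays and bars are group means of 5 arrays. Runx2, Sp7, Ibsp and Spp1 in bone lie above every array of the other tissues, whereas Alpl comes down to 5.08 in 1 old bone array and reaches 8.30 in 1 adipose array of 4-month-old mice.

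The other tissues showed how far each gene is confined to bone. Ibsp ranged from 2.75 to 3.61 over the 50 arrays outside bone, and in all 50 it was at or below the 95th percentile of 830 olfactory receptor genes on the same array, receptors of the nose that serve here as a measure of background. Sp7 ranged from 2.79 to 3.81 and was at or below that percentile in every one of these arrays but 1 of skin. The differences of both genes from the other tissues are therefore limited by the background. Runx2 ranged from 3.50 to 4.70, and lay above that percentile in every array of skin and thymus. It was at or below it in 10 of 15 muscle arrays and 3 of 10 adipose arrays. Its differences from muscle and adipose tissue are therefore limited by the background as well.

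Alpl had a second tissue at 4 and 18 months. In muscle its 5 arrays read 5.57, 5.82, 6.17, 5.98 and 5.68 at 4 months and 6.99, 6.18, 6.01, 6.02 and 6.00 at 18 months. Every one of these lay above every array of skin and of thymus. Muscle was higher than skin by 1.49 ± 0.41 at 4 months (adjusted p = 0.00141) and by 1.85 ± 0.41 at 18 months (adjusted p = 0.000124), and higher than thymus by 1.89 ± 0.41 and 2.27 ± 0.41. Leaving out the mice of 1 identifier series (6JA) kept only replicate 1 of muscle at 4 months. The difference from skin was then 1.21 and that from thymus 1.62, values that rest on 1 muscle array. In 28-month-old muscle Alpl read 4.65, 5.79, 5.30, 5.20 and 4.83, against 4.25 to 4.96 in skin. The difference of 0.60 between them did not pass the test (adjusted p = 0.185).

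Adipose tissue had 1 array that decided its Alpl value. In 4-month-old mice the 5 arrays were at 4.27, 4.31, 4.24, 8.30 and 4.50. The high array also carried genes of the epididymis (Crisp1, Lcn5, Adam7, Rnase9 and Spint4, a list chosen after the data were seen) at a mean of 12.47, as did replicate 5 at 11.11, against 2.91 to 3.08 in the other 3 arrays of the group. The part of this in the Alpl value was not tested. Thymus was lower than adipose tissue by 1.17 ± 0.41 at 4 months (adjusted p = 0.0121), and without the high array the difference was -0.38 (adjusted p = 0.314). Muscle minus adipose tissue was 0.72 ± 0.41 at 4 months (adjusted p = 0.128) and 1.51 without that array (adjusted p = 1.5e-05).

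Spp1 outside bone was low and uneven. It ranged from 3.39 to 6.81, and the highest array was adipose tissue of an 18-month-old mouse (replicate 5), whose group read 3.81, 3.81, 3.88, 4.85 and 6.81. The same array had skeletal muscle markers at 8.84 and replicate 4 had them at 6.99, against 4.17 to 4.28 in the other 3. In 18-month-old muscle itself Spp1 read 4.02 to 5.01. Macrophage markers were at 9.795 in replicate 5, against 9.12 to 9.26 in the rest of its group. The part of muscle or macrophages in the Spp1 value was not tested. Among the pairs of other tissues, 13 of 65 comparisons of a member passed the test, where 54.7% of all genes passed over the 13 pairs (40.0% to 68.1% per pair). Alpl gave 6 of the 13, Runx2 gave 5 and Ibsp, at background, gave 2. Runx2 in skin was above adipose tissue by 0.62 ± 0.13 at 4 months (adjusted p = 0.000113), and by 0.36 with the median over its probe sets (adjusted p = 0.169).

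Between the ages in bone the members past the test differed by period. From 4 to 18 months all 5 means were lower, with differences of -0.40 (Runx2) to -1.11 (Sp7). These ranked between the 64th and the 600th lowest of 15830 genes. An unadjusted p below 0.05 was reached by 4 of the 5. The share of all genes at that cut is not given here, so the count is a description only. After adjustment 1 of 5 fell and 0 rose, where 0.846% of all genes fell and 0.341% rose, with a median over the members of -0.70 and over all genes of 0.00. Between 18 and 28 months 2 of 5 rose, where 2.43% of all genes rose and 1.75% fell. Over the whole span of 4 to 28 months 2 of 5 fell, where 6.46% of all genes fell and 8.14% rose. The genes concerned differed by period: Ibsp in the first, Ibsp and Spp1 in the second, Sp7 and Alpl over the whole span.

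**Figure D2:**
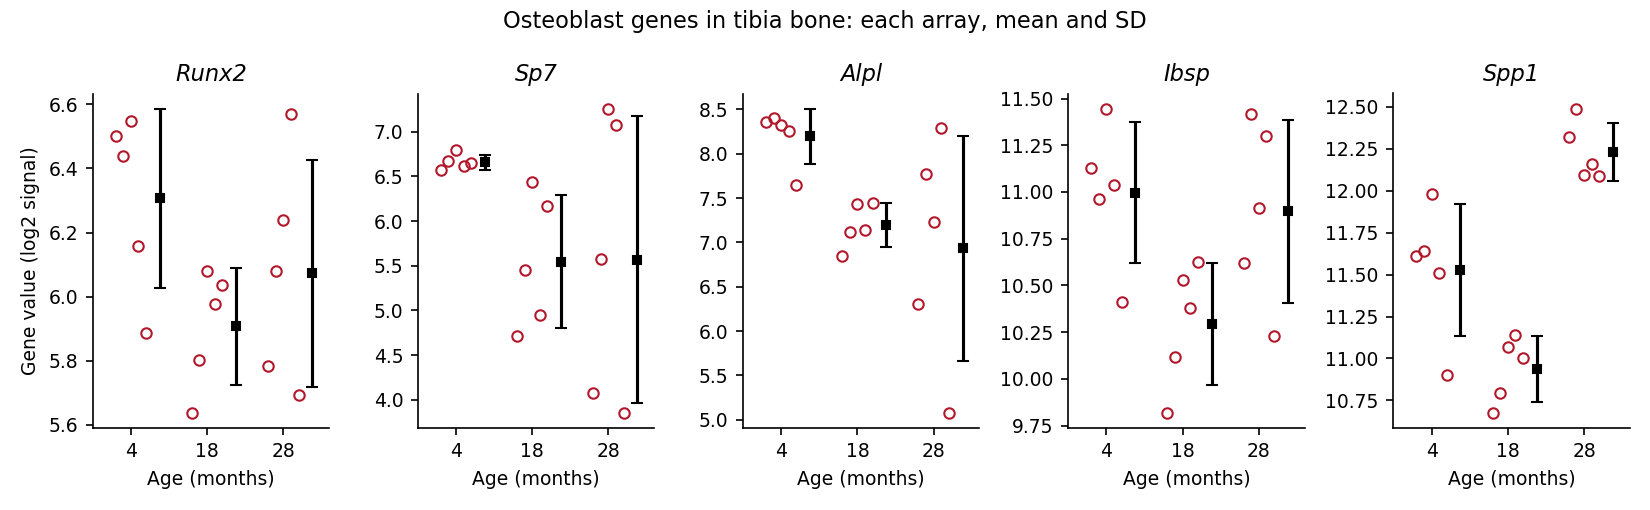
Gene value (log2 signal, vertical axis, a scale of its own per gene) in tibia bone at 4, 18 and 28 months. Circles are the 5 arrays of an age in the order of their replicate numbers, and the square with bars is the mean with SD. All 5 Spp1 values at 28 months lie above all 5 at 18 months, and the Sp7 values spread from 3.86 to 7.26 at 28 months after lying between 6.57 and 6.79 at 4 months.

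Runx2, the lineage factor, passed the test at none of the 3 pairs of ages. In 4-month-old bone it read 6.50, 6.44, 6.55, 6.16 and 5.89. At 18 months it read 5.64, 5.80, 6.08, 5.98 and 6.04, and at 28 months 5.78, 6.08, 6.24, 6.57 and 5.69. The 3 ages overlapped: 4 of the 5 young arrays lay above every 18-month array, and the highest value of all was in old bone. The difference was -0.40 ± 0.13 from 4 to 18 months (adjusted p = 0.158, 95% interval -0.67 to -0.13), 0.17 ± 0.13 from 18 to 28 months (adjusted p = 0.58) and -0.23 ± 0.13 over the whole span (adjusted p = 0.225). With the median over probe sets in place of the mean, the first difference was -0.86 (adjusted p = 0.0165). With gene values quantile normalised over all arrays the first and the last were -0.46 (adjusted p = 0.0459) and -0.37 (adjusted p = 0.0476).

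Sp7, which acts after Runx2, was tightly set in young bone and scattered in old bone. At 4 months it read 6.57, 6.67, 6.79, 6.61 and 6.65. At 18 months it read 4.72, 5.45, 6.43, 4.95 and 6.17, all below the 4-month arrays. At 28 months it read 4.07, 5.58, 7.26, 7.08 and 3.86, with 2 arrays above every young one and 3 below. The SD was 0.0852, 0.747 and 1.61 at the 3 ages. The ratio of the last to the first, 18.8, was larger than that of 99.9% of genes, whose median ratio was 1.02. That ratio rests in part on the small SD at 4 months, and the 28-month SD alone was larger than that of 99.7% of genes. Sp7 was read by 2 probe sets, where the median gene had 9, and the part of this in its spread was not tested.

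The mean of Sp7 fell by 1.09 ± 0.33 from 4 to 28 months (2.13-fold, adjusted p = 0.0181). The call rested on the 2 lowest old arrays, as without 28-month replicate 1 the difference was -0.72 (adjusted p = 0.109) and without replicate 5 it was -0.66 (adjusted p = 0.169). In a fit of the bone arrays alone it had an adjusted p of 0.175, since the spread of Sp7 within groups was 1.02 (SD) in bone and 0.227 in the other tissues, which the fit of all arrays pools. With the bone arrays weighted by their residual spread (a fit added after the values were seen) it was -0.59 (adjusted p = 0.381). From 4 to 18 months the difference was -1.11 ± 0.33 (adjusted p = 0.0811), and it passed without 18-month replicate 3 (-1.34, adjusted p = 0.0249) or replicate 5 (-1.27, adjusted p = 0.0497), and with gene values quantile normalised (-1.18, adjusted p = 0.0314). From 18 to 28 months it was 0.02 ± 0.33 (adjusted p = 0.983).

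Alpl, the phosphatase that removes pyrophosphate, had lower means in both older groups than in young bone. It read 8.36, 8.40, 8.32, 8.25 and 7.65 at 4 months and 6.85, 7.12, 7.43, 7.14 and 7.44 at 18 months. All of the 18-month arrays were below all of the 4-month ones, which is a description of the values only. At 28 months it read 6.30, 7.77, 7.23, 8.29 and 5.08, so that 2 arrays were back within the range of the young mice and 2 were below every 18-month array.

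The mean of Alpl fell by 1.26 ± 0.41 from 4 to 28 months (2.40-fold, adjusted p = 0.0284). Leaving out 28-month replicate 5, the array with few erythroid markers, gave -0.80 (adjusted p = 0.203), and leaving out 28-month replicate 1 gave -1.11 (adjusted p = 0.0701). The call was also lost without 4-month replicate 1, 2 or 4 (-1.25 to -1.21, adjusted p = 0.0504 to 0.0656), in a fit of bone alone (adjusted p = 0.0568), with the median over probe sets (-1.23, adjusted p = 0.0728) and with bone arrays weighted (-0.76, adjusted p = 0.0951). From 4 to 18 months the mean differed 2.00-fold, the 18-month value being the lower (SE of 0.41 on the log2 scale, adjusted p = 0.323). That SE rests on the spread of Alpl pooled over all 13 groups (SD of 0.660). The SD was 0.310 and 0.248 in bone at 4 and 18 months, 1.27 in bone at 28 months and 1.78 in adipose tissue at 4 months. From 18 to 28 months the log2 difference was -0.26 ± 0.41 (adjusted p = 0.801). That step had no settled direction, as the median went from 7.14 to 7.23, and the difference was 0.20 without 28-month replicate 5 and 0.21 with weighted arrays.

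Ibsp, the mineral-nucleating sialoprotein, was lowest at 18 months. It read 11.13, 10.96, 11.45, 11.04 and 10.41 at 4 months, 9.82, 10.12, 10.53, 10.38 and 10.62 at 18 months, and 10.62, 11.42, 10.91, 11.30 and 10.23 at 28 months. The 18-month arrays lay below all young arrays but replicate 5 and overlapped with the old ones. Ibsp fell by 0.70 ± 0.14 from 4 to 18 months (1.63-fold, adjusted p = 0.00219) and rose by 0.60 ± 0.14 from 18 to 28 months (1.52-fold, adjusted p = 0.00628).

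Neither Ibsp call held under every alternative. Its SD within groups was 0.403 in bone and 0.134 in the other tissues, where it was at background, and in a fit of bone alone the adjusted p was 0.184 for the fall and 0.17 for the rise. With probe sets of a mean log2 signal of at least 5 only, the fall was -0.47 (adjusted p = 0.156) and the rise 0.47 (adjusted p = 0.0797). With bone arrays weighted the fall was -0.63 (adjusted p = 0.0769), and with the median over probe sets the rise was 0.44 (adjusted p = 0.132). The rise had an adjusted p of 0.053 without 28-month replicate 2 (0.47). Between 4 and 28 months Ibsp differed by -0.10 ± 0.14 (adjusted p = 0.667, 95% interval -0.39 to 0.19).

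Spp1, the osteopontin gene, gave the clearest step, in the later period. It read 11.61, 11.64, 11.98, 11.51 and 10.90 at 4 months, 10.68, 10.79, 11.07, 11.14 and 11.01 at 18 months, and 12.32, 12.49, 12.10, 12.16 and 12.09 at 28 months. Every old array was above every other bone array. Spp1 rose by 1.29 ± 0.30 from 18 to 28 months (2.45-fold, adjusted p = 0.00594), ranked 78th of 15830 genes by size.

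The rise of Spp1 passed the test when any 1 of the 10 bone arrays was left out (1.23 to 1.35, adjusted p = 0.00814 to 0.0195) and in a fit of bone alone (adjusted p = 0.000444). With the median over its probe sets it was 1.15 (adjusted p = 0.078). Between 4 and 28 months Spp1 differed by 0.70 ± 0.30 (adjusted p = 0.106). In bone alone, where its SD within groups was 0.271 against 0.541 elsewhere, that difference had an adjusted p of 0.00994. From 4 to 18 months it was -0.59 ± 0.30 (adjusted p = 0.537), and with bone arrays weighted -0.57 (adjusted p = 0.028).

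The spread of the matrix genes did not follow that of Sp7. Spp1 had an SD of 0.391, 0.196 and 0.172 at 4, 18 and 28 months and Ibsp 0.376, 0.327 and 0.488, whereas Alpl had 0.310, 0.248 and 1.27. The 2 arrays of 28-month-old bone that were lowest for Sp7 and Alpl, replicates 1 and 5, were at 12.32 and 12.09 for Spp1. The same arrays had the lowest means of the other bone matrix genes, 7.47 and 6.83, where the remaining old arrays had 8.21 to 8.49. Replicate 5 was also the array with erythroid markers at 6.13, and replicate 1 had them at 9.98. Replicate 1 had B cell markers at 4.71, where the other 14 bone arrays had 6.15 (replicate 5) to 8.27. Replicate 3, the highest array for Sp7, had adipocyte markers at 8.24 against 5.20 to 6.30 in the others. The part of these markers in the Sp7 and Alpl values was not tested.

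The change in bone was then compared with the mean change in the other tissues over the same period. From 4 to 18 months Ibsp moved lower in bone than elsewhere by 0.69 ± 0.16 (adjusted p = 0.0113), 1 of 5 members where 1.29% of all genes passed. Ibsp was at background in all 50 arrays outside bone, so this difference repeats that of bone (-0.70). The call was lost with probe sets of a mean log2 signal of at least 5 only (-0.42, adjusted p = 0.208), and without 4-month bone replicate 3 (-0.58, adjusted p = 0.0639) or 18-month bone replicate 1 (-0.57, adjusted p = 0.079). Alpl differed by -0.96 (adjusted p = 0.323), and by -1.16 without the adipose array with the high Alpl signal (adjusted p = 0.0385). Sp7 differed by -1.09 (adjusted p = 0.127), and in a fit of the arrays compared alone the adjusted p was 0.00224.

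From 18 to 28 months Spp1 rose more in bone than in muscle and skin by 1.10 ± 0.37 (adjusted p = 0.0449), 1 of 5 where 10.9% passed. This call was close to the threshold and was lost when any 1 of the 10 bone arrays of the period was left out (1.04 to 1.15, adjusted p = 0.0519 to 0.0853). It was also lost without muscle replicate 1 or 4 at 18 months, muscle replicate 2 at 28 months, skin replicate 4 or 5 at 18 months or skin replicate 1, 2, 3 or 4 at 28 months (1.01 to 1.12, adjusted p = 0.0521 to 0.0614). With the median over probe sets it was 0.86 (adjusted p = 0.241), and with gene values quantile normalised over all arrays 0.93 (adjusted p = 0.11) or within tissues 1.08 (adjusted p = 0.0521). In a fit of the arrays compared alone the adjusted p was 0.0109. Ibsp differed by 0.44 (adjusted p = 0.0856), and by 0.61 without 28-month bone replicate 5 (adjusted p = 0.0158) or 0.51 without replicate 1 (adjusted p = 0.05).

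Over the whole span Runx2 and Sp7 moved lower in bone than in muscle and skin, by 0.44 ± 0.16 (adjusted p = 0.0388) and 1.11 ± 0.40 (adjusted p = 0.0338). That was 2 of 5, where 27.6% of all genes passed. As Sp7 was at background outside bone, its value repeats the bone difference (-1.09). Runx2 was at background in 10 of 15 muscle arrays, which limits the change that could be seen in muscle. With the median over probe sets Runx2 had -0.58 (adjusted p = 0.094). Both calls were lost in a fit of the arrays compared alone (adjusted p = 0.0716 and 0.0999). Without the 6JA mice, which left only replicate 1 of muscle at 4 months, the differences were -0.31 and -1.07. For Sp7 the difference without 28-month bone replicate 1 or 5 was -0.74 and -0.68, and the call was also lost without 4-month bone replicate 2 or 3 (-1.11 and -1.08). For Runx2, the call was lost without bone replicate 1, 2 or 3 at 4 months, bone replicate 1, 2 or 5 at 28 months, muscle replicate 3 at 4 months, muscle replicate 1 at 28 months, skin replicate 1 or 3 at 4 months, or skin replicate 1 or 2 at 28 months (-0.44 to -0.34, adjusted p = 0.0507 to 0.118). Alpl differed by -1.02 (adjusted p = 0.114), and by -1.36 without 28-month bone replicate 4 (adjusted p = 0.0388).

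Within bone, the 2 periods were also set against each other. For Ibsp the later change exceeded the earlier one by 1.31 ± 0.25 (adjusted p = 0.00186), which was 1 of 5 members where 0.619% of all genes passed. In a fit of bone alone the adjusted p was 0.228, and with probe sets of a mean log2 signal of at least 5 the difference was 0.94 (adjusted p = 0.106). For Spp1 it exceeded it by 1.89 (adjusted p = 0.0769), and in bone alone the adjusted p was 0.00697.

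Outside bone the members were not called with age. Over 40 comparisons of a member between ages in muscle, skin, thymus and adipose tissue, 0 passed in limma and 3 had an unadjusted p below 0.05. The share of all genes at the unadjusted cut is not given here, so those 3 are a description only. The closest was Alpl in muscle, at -1.09 ± 0.41 from 18 to 28 months (adjusted p = 0.0656), which passed in a fit of muscle alone (adjusted p = 0.0157) and without muscle replicate 2 at 28 months (-1.24, adjusted p = 0.0497). Over these 8 pairs of ages 10.1% of all genes passed (0.107% to 19.4% per pair). The other two with such a p were Runx2 in muscle from 4 to 28 months (0.30 ± 0.13, adjusted p = 0.107) and Spp1 in adipose tissue from 4 to 18 months (0.81 ± 0.30, adjusted p = 0.132), the group with the 2 arrays that carried muscle markers.

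Probe sets, which mostly read 1 exon each, showed how uniform the differences were along a gene. All 10 of Ibsp and all 9 of Spp1 were higher in bone than in the other tissues at 4 months, by 5.87 to 9.39 and 5.59 to 8.67, where 20.2% of 179614 probe sets were higher. All 16 of Alpl were higher, by 0.60 to 4.60. For Runx2 12 of 16 were higher, over a range of -0.25 to 4.87, and the probe sets 4756695, 5042871, 5223085 and 4640630 did not pass the test. The 2 probe sets of Sp7 differed in reach, at 5.63 ± 0.34 and 1.31 ± 0.25.

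With age, the probe sets of a gene mostly kept 1 direction. All 16 of Alpl were lower at 18 and at 28 months than at 4 months, by 0.55 to 1.63 and by 0.67 to 1.66, and 3 of them passed the test over the whole span, where 2.70% of all probe sets were lower. All 10 of Ibsp were lower at 18 than at 4 months and higher at 28 than at 18 months. All 9 of Spp1 were higher at 28 than at 18 months, by 0.85 to 2.35, and 3 passed, where 0.767% of all probe sets were higher. Runx2 was mixed, with 14 of 16 probe sets lower at 18 months and 10 of 16 higher in the later period. Of the 2 probe sets of Sp7, the one with the larger difference between tissues was lower by 1.71 ± 0.43 over the whole span (adjusted p = 0.00688), and the other was lower by 0.47 ± 0.32 (adjusted p = 0.442).

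**Figure D3:**
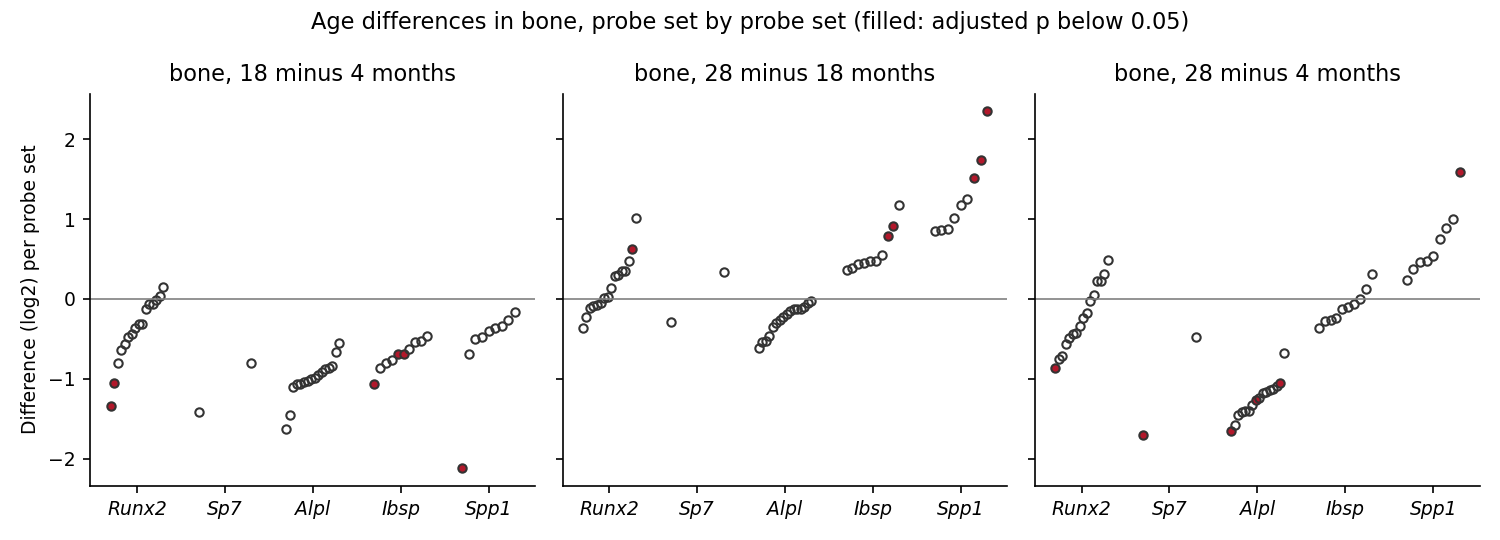
Difference between ages in bone (log2, vertical axis) of each probe set of the 5 genes, sorted by size within a gene, for the 3 pairs of ages. Filled points passed an adjusted p of 0.05 over 179614 probe sets. All 9 Spp1 probe sets lie above 0 from 18 to 28 months and all 16 Alpl probe sets lie below 0 in each of the 3 panels.

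One Spp1 probe set stood apart from its neighbours. Probe set 5403558 was lower by 2.12 ± 0.41 from 4 to 18 months (adjusted p = 0.00166) and higher by 2.35 ± 0.41 from 18 to 28 months (adjusted p = 0.000305), where the other 8 probe sets were lower by 0.16 to 0.70 and higher by 0.85 to 1.75. Exon usage, the change of a probe set against its gene, was tested in genes whose own level had not changed at an unadjusted p of 0.05, which left Spp1 out at each pair of ages. Without that rule the interaction test for Spp1 had an adjusted p of 0.028 from 4 to 18 months, 0.0665 from 18 to 28 months and 0.00265 from 4 to 28 months, with 3.63%, 3.02% and 32.7% of genes called. By the diffSplice test of limma the adjusted p was 0.143, 0.208 and 0.103.

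For the members that were kept, exon usage was not called. Runx2, Alpl and Ibsp were tested from 18 to 28 months (adjusted p = 0.899, 1 and 0.818) and from 4 to 28 months (adjusted p = 0.302, 0.714 and 0.661). The lowest unadjusted p of these 6 tests was 0.164, and by diffSplice the lowest adjusted p was 0.58. The shares of genes called were 0.562% and 24.0%, and 1.25% from 4 to 18 months, when no member was kept. Without 4-month bone replicate 5, Ibsp had an adjusted p of 0.00896 from 4 to 28 months. Sp7 had too few probe sets for the test.

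The rest of the pathway gave a frame for the members. For the counts that follow, 0.341% of all genes rose and 0.846% fell in bone from 4 to 18 months. From 18 to 28 months 2.43% rose and 1.75% fell, and from 4 to 28 months 8.14% rose and 6.46% fell. Of 12 other regulators of osteoblasts, 6 were higher and 2 lower in bone than in the other tissues at 4 months, with a median difference of 0.20. Of all genes, 21.7% were higher and 31.2% lower. Dlx5, a homeobox activator of Runx2 and Sp7, was higher by 1.99 ± 0.19, and Vdr, the vitamin D receptor, by 1.89 ± 0.23. With age in bone 0 of the 12 passed the test from 4 to 18 or from 4 to 28 months. From 18 to 28 months 1 rose, Vdr, by 1.25 ± 0.29 (adjusted p = 0.00494). Dlx5 was at 6.08, 5.41 and 5.50 at the 3 ages.

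Of 17 genes of osteoblast signalling, 2 fell from 4 to 18 months. They were Tnfrsf11b, which encodes osteoprotegerin, the decoy receptor that restrains osteoclast formation, by 2.09 ± 0.37 (adjusted p = 0.000327), and the bone morphogenetic protein Bmp2, by 1.10 ± 0.24 (adjusted p = 0.00627). From 4 to 28 months 3 of the 17 rose and 3 fell. Tnfrsf11b was lower by 2.14 ± 0.37 (adjusted p = 4.1e-05) and Wnt10b, a Wnt ligand that favours bone formation, by 0.67 ± 0.14 (adjusted p = 0.000771). The BMP receptor gene Bmpr1a was higher by 0.89 ± 0.15 (adjusted p = 1.93e-05). In the later period 2 rose, Lrp6 by 0.44 ± 0.11 and Smad1 by 0.60 ± 0.17.

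Of 15 other genes of bone matrix and mineralisation, 15 were higher in bone at 4 months, 11 at 18 months and 9 at 28 months, with 1 lower at that last age. The shares of all genes that were higher were 21.7%, 21.5% and 27.3%. At 28 months the comparison was with muscle and skin only, so these counts are not a series with age. In bone 2 fell from 4 to 18 months, 0 passed from 18 to 28 months and 5 fell from 4 to 28 months, and the median over the list was -0.54 in the last comparison against -0.05 over all genes. Col24a1, a fibrillar collagen of developing bone, fell by 2.50 ± 0.20 over the whole span (adjusted p = 1.4e-14), and Omd (osteomodulin), a matrix proteoglycan, by 1.54 ± 0.32 (adjusted p = 0.000528). Ank, which moves pyrophosphate out of cells, fell by 0.45 ± 0.13 (adjusted p = 0.0147). The other two were the matrix glycoprotein gene Sparc (-1.07 ± 0.38) and Smpd3, a sphingomyelinase gene needed for mineralisation (-1.11 ± 0.37). The bone gamma-carboxyglutamate genes had no probe set with 1 symbol.

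Ibsp and Spp1 belong to the SIBLING family of acidic mineral-binding proteins, whose 5 genes Dspp, Dmp1, Ibsp, Mepe and Spp1 lie next to each other in this order on chromosome 5. Dspp apart, the means of the family were lower at 18 than at 4 months and higher at 28 than at 18 months, and differences between its members were not tested. Up to 18 months Dmp1 fell by 2.28 ± 0.25 (adjusted p = 3.88e-09), and the Mepe difference was -1.83 ± 0.26 (adjusted p = 2.53e-06). Between 18 and 28 months Dmp1 rose by 0.84 ± 0.25 (adjusted p = 0.0383) and Mepe differed by 0.16 ± 0.26 (adjusted p = 0.799). Over the whole span Dmp1 and Mepe remained lower, by 1.44 ± 0.25 and 1.66 ± 0.26, where Ibsp differed by -0.10 and Spp1 by 0.70. Dspp, a dentin gene, was between 2.96 and 3.55 in bone.

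Markers of other cells of bone and marrow also moved with age in bone, and their part in the members' values was not tested. Of 6 osteocyte markers 5 fell from 4 to 18 months (Dmp1, Mepe, Sost, Phex and Pdpn). Sost, which encodes the Wnt inhibitor sclerostin, fell by 2.07 ± 0.29 (adjusted p = 2.53e-06). The list mean was 8.32 to 8.68 in 4-month-old bone, 5.84 to 7.42 at 18 months and 6.32 to 7.84 at 28 months. Of 15 chondrocyte markers 10 fell from 4 to 28 months, with list means of 4.15 to 5.09 in young and 3.47 to 4.22 in old bone.

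Some marker genes of osteoclasts and macrophages, cells known to make osteopontin, also rose from 18 to 28 months. Of 13 osteoclast markers 6 rose and 0 fell, with list means of 7.80 to 8.07 at 18 months and 8.24 to 8.53 at 28 months. Tm7sf4, the fusion protein DC-STAMP, rose by 1.03 ± 0.11 (adjusted p = 2.04e-09) and Oscar, an osteoclast receptor, by 0.90 ± 0.13 (adjusted p = 2.56e-06). Of 8 macrophage markers 6 rose and 0 fell, with list means of 8.78 to 9.17 at 18 months and 9.46 to 10.61 at 28 months. Emr1, the macrophage receptor ADGRE1, rose by 1.42 ± 0.27 (adjusted p = 0.000435). In both lists, as for Spp1, the old arrays lay above all others. Within old bone, replicates 1 to 5 had macrophage means of 9.46, 10.50, 10.22, 9.54 and 10.61. Their Spp1 values were 12.32, 12.49, 12.10, 12.16 and 12.09. The part of either cell type in the Spp1 value was not tested.

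Skeletal muscle markers varied between bone arrays with no group apart. Their means were 6.04 to 9.75 at 4 months, 7.22 to 11.13 at 18 months and 8.27 to 10.86 at 28 months, and 5 of 10 rose from 4 to 28 months. Muscle carries Alpl, as given above. Erythroid markers fell in 3 of 7 from 18 to 28 months, with list means of 9.83 to 10.35 and 6.13 to 10.04.

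**Figure D4:**
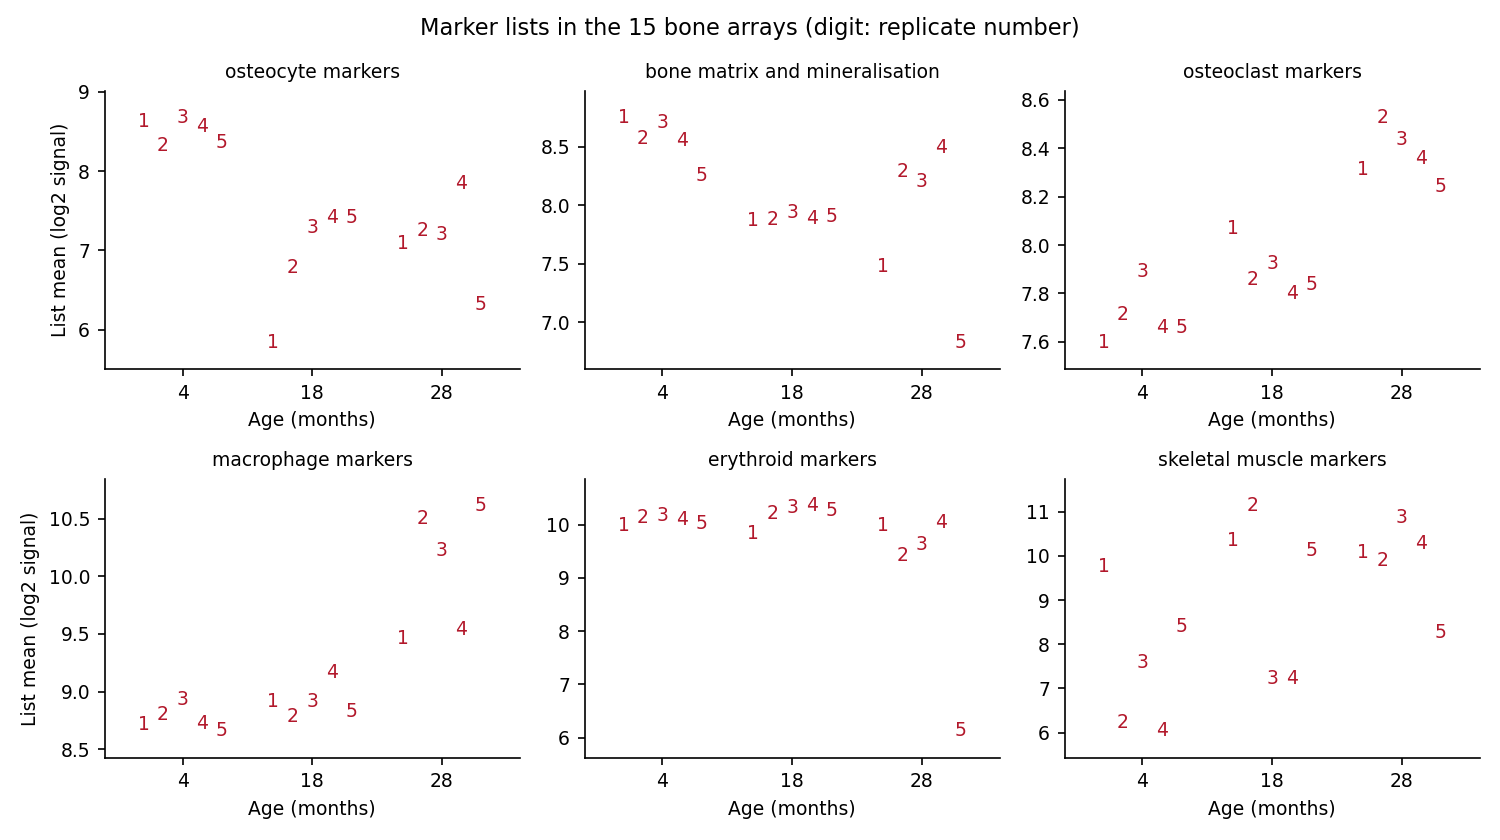
Mean log2 signal (vertical axis, a scale of its own per panel) of 6 gene lists in the 15 bone arrays, by age in months. Each digit is the replicate number of an array. Osteocyte markers are at 8.32 or higher in every young array, osteoclast and macrophage markers are highest in the 5 old arrays, and old replicate 5 is low for bone matrix (6.83) and erythroid (6.13) genes.

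Genes with the most similar pattern were named as a description, by Pearson's r. Over the 13 group means, where tissues set the values, Sp7 was most like Mepe (0.998), Sost (0.996) and Dmp1 (0.996), which are osteocyte markers. Ibsp was most like Gp5, Ms4a3 and Abca13 (0.998 to 0.999), and Spp1 like Clec4e, Clec4b2 and Ibsp (0.996 to 0.997). Runx2 was most like Trem1 (0.985) and Alpl like Parvb (0.959). Several of these are genes of blood cells, which share the bone arrays with the osteoblast genes.

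Over the 15 bone arrays the order changed. Runx2 was most like Sdk2 (0.919), Dlx5 (0.911) and Sh3pxd2b (0.909), Sp7 like Pcdh18, Gtf2i and Bmp3 (0.881 to 0.909), and Alpl like Col5a1, Gpx8 and Col11a1 (0.963 to 0.968). Ibsp was most like Sh3pxd2b, Vasn and Cadm1 (0.897 to 0.928). Spp1 was most like Myo10 (0.908), Tnfrsf11a (0.883), the receptor RANK of osteoclast precursors, and Mmp13 (0.882), a collagenase. Among the members themselves, Sp7 and Alpl had an r of 0.832, Runx2 and Ibsp 0.848, and Ibsp and Spp1 0.685, whereas Spp1 had -0.005 with Sp7 and -0.027 with Alpl. The 15 arrays fall into 3 age groups and differ in the marrow and muscle signals given above, so these values of r include both.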

How the data were processed

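RNA was hybridised to Affymetrix Mouse Exon 1.0 ST arrays. Per the labels, RNA integrity numbers were at least 8. The authors processed the scans in Partek by robust multi-array averaging (RMA), with GC-dependent background adjustment, quantile normalisation and median polish, and annotated them on mm9. They deposited log2 signals for 194293 probe sets. Quantile normalisation makes every value relative to the whole array, so a change in total RNA per cell is not seen.

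A gene value was the mean log2 signal over the 179614 probe sets with 1 symbol, giving 15830 genes, and 1331 probe sets with several symbols and 13348 with none were left out. Of these symbols, 86.8% are current in RefSeq for GRCm38.p6. Differences were tested with limma 3.58.1 in R 4.3.3 on the means of 13 groups of 5, with Benjamini-Hochberg adjustment over all genes and a threshold of 0.05. Exon usage was tested by the interaction of probe set and age over probe sets with a mean log2 signal of at least 3 in genes with 3 or more of them, after removal of genes whose level changed at an unadjusted p of 0.05. Array signals hold no counts, so the 5 arrays per group limit the precision. Promoters were read from RefSeq, and figures were drawn with matplotlib 3.10.9 in Python 3.11.15. The fits were tested on simulated data with known changes.

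The 5 members were always named. From each list at most the 3 genes with the smallest adjusted p were named per bone age comparison and in the comparison of bone with the other tissues, and for each member the 3 genes with the highest r. Sparc, Smpd3, Dspp, Phex, Pdpn and the epididymis genes were named after their values were seen, to complete a short list. Bone matrix, signalling, regulator and marker lists were set by hand. The members and lists were chosen with earlier results of these data known, and the epididymis list, the tests of single probe sets, the removal of adipose arrays and the array weights were added after the values were seen. No bone gamma-carboxyglutamate gene symbol was measured.

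By the labels, bone, muscle and skin of 1 replicate number came from the same mouse at 28 months only. At 18 months the 6 mice gave several tissues under differing numbers, and no number ties mice of different ages. Deviations from group means of the same mouse correlated at 0.0256 to 0.335 (15 pairs of arrays) and those of different mice at -0.293 to 0.201 (60 pairs). The alternatives were the replicate block, the mouse as a random block, fits of the arrays compared alone, the median over probe sets, a signal filter, renormalisation and leaving out arrays.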

Additional observations from a re-analysis of the deposited data

Results flagged for a closer look

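In 7 of 65 sets of 5 arrays, 1 array lay far from the other 4, with a gap to its neighbour above 0.71 of the whole range, which chance gives in about 1 of 20 sets. For Alpl these were replicate 4 of adipose tissue at 4 months (8.30, the array that carried epididymis genes), replicate 5 of bone at 4 months (7.65) and replicate 1 of muscle at 18 months (6.99). For Ibsp, at background in both tissues, they were replicate 1 of muscle at 18 months (3.39) and replicate 1 of skin at 28 months (3.36). The last were replicate 1 of adipose tissue at 4 months for Runx2 (4.21) and replicate 5 of skin at 4 months for Sp7 (3.69).

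The change with age in bone differed from that in the other tissues for Ibsp from 4 to 18 months (-0.69, at background outside bone), for Spp1 from 18 to 28 months (1.10), and for Runx2 (-0.44) and Sp7 (-1.11, at background outside bone in all but 1 array) from 4 to 28 months. Within bone, the later change of Ibsp exceeded the earlier one by 1.31. Each of these passed the limma test of the difference itself, and the arrays on which each call rests were given with its values.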

How the results depend on the processing

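All 5 genes were higher in bone than in the mean of the other tissues at each age under every alternative run for them, except that Sp7 had no probe set left with a mean log2 signal of at least 5, a filter that kept 11818 genes. The 50 pair calls were 49 with the median over probe sets and with gene values quantile normalised, 40 with that filter (without Sp7), and 49 to 50 when 1 array was left out. Of the values of single genes under all alternatives, 1577 kept direction and side of the threshold, 97 lost the call, 24 gained it and 24, none of them called, changed sign.

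Counts of members called in bone moved more, and unless a value shows it the cause was not tested. From 4 to 18 months the count of 1 was 0 in bone alone and with the filter of 5. It was 2 with the median over probe sets, 3 with gene values quantile normalised, and 1 to 2 with an array left out. With array weights Ibsp lost its call and Spp1, lower at 18 months, was called in its place. From 18 to 28 months the count of 2 was 1 in bone alone and with the filter, 0 with the median, and 1 to 2 with an array left out. From 4 to 28 months the count of 2 was 1 in bone alone, with the median, with the filter and with array weights. It was 3 with gene values quantile normalised and 0 to 2 with an array left out. In bone alone and with array weights Sp7 and Alpl lost their falls, and the 1 member called was Spp1, which rose. Muscle from 18 to 28 months had 1 in place of 0 in muscle alone and after quantile normalisation, and 0 to 1 with an array left out.

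For the change in bone against that elsewhere, the first period's count of 1 was 2 in a fit of those arrays alone and without the adipose arrays that stood apart, 0 with the filter, and 0 to 2 with an array left out. The second period's 1 was 0 with the median and with quantile normalisation of genes over all arrays or within tissues, and 0 to 1 with an array left out. Over the whole span 2 became 0 in those arrays alone, 1 with the median and with the filter, and 0 to 3 with an array left out. The count of 1 between periods was 0 with the filter and 2 with array weights. In bone alone Spp1 was called in place of Ibsp. The 13 calls between other tissues were 8 with the median, 15 with the mouse as a random block and 10 to 14 with an array left out. Counts without the 6JA mice are not given, as only replicate 1 of muscle was left at 4 months. Exon usage was called for 1 member from 4 to 18 and from 4 to 28 months without the removal of changed genes, and for 0 to 1 with an array left out.

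Signs changed, with no call, for Runx2 from 18 to 28 months with the filter (-0.0034), Alpl with array weights (0.21), Ibsp from 4 to 28 months with the filter (0.0034) and with weights (0.058), and in the contrast with other tissues for Runx2 with the median (0.19), Sp7 after quantile normalisation (0.031) and Ibsp with the filter (0.04). With an array left out, the later change in bone ranged from -0.40 to 0.45 for Sp7 and -0.60 to 0.20 for Alpl, and that of Ibsp over the whole span from -0.25 to 0.067. Against the other tissues from 18 to 28 months Runx2 ranged from -0.17 to 0.047, Sp7 from -0.45 to 0.40 and Alpl from -0.13 to 0.67.

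The replicate number is the mouse at 28 months only. With it as a block over all arrays, Runx2 lost its calls in skin minus adipose tissue at 18 months (0.32, adjusted p = 0.0537) and muscle minus skin at 4 months (-0.30, adjusted p = 0.0529). With the mouse as a random block, muscle minus skin at 28 months was gained for Ibsp (0.31, adjusted p = 0.0484) and Spp1 (0.65, adjusted p = 0.0445). In bone, neither block changed a call of a member, such as that of Spp1 from 18 to 28 months (adjusted p = 0.00626 and 0.0054). Signals near background limit Ibsp and Sp7 outside bone, and Runx2 in 10 of 15 muscle and 3 of 10 adipose arrays.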
